A study of Mus musculus with 6 samples.

Results

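Intermediate neural tube progenitor factors are transcription factors made between the ventral and the dorsal progenitors of the developing spinal cord, and 10 of them were examined here, namely Gsx1, Gsx2, Ptf1a, Prdm13, Dbx2, Dbx1, Prdm12, Pax6, Irx3 and Irx5. They were chosen by gene symbol, out of 18528 genes with a probe of 1 symbol, and with earlier results of these data known. They were read by 11 of the 34967 gene probes on the array, with a pair of probes for Dbx2 and a single probe for each other gene. The samples were posterior tissue of mouse embryos at embryonic day 9.5, cut just behind the forelimb bud, in 3 Fkbp8 mutants (a, b and c) and 3 wildtypes (d, e and f), with 1 single-colour CodeLink array for each sample. All embryos came from matings between heterozygous Fkbp8 carriers, and the strain and the mutant allele are not given in the sources used here. The source label of mutant a is in the plural and those of the other samples are in the singular, so whether mutant a was a pool is unknown. The limma p-values set the difference between the groups against the spread among samples within them, with variance shared across probes. That spread may be partly technical.

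Progenitors of the spinal cord lie in stacked dorsoventral domains, each marked by its own combination of homeodomain, basic helix-loop-helix and PR-domain factors. Sonic hedgehog from the notochord and floor plate represses Pax6, Irx3 and the Dbx genes in ventral cells and induces ventral factors such as Nkx6-1 and Foxa2, while retinoic acid from the somites helps to switch on Pax6 and the Dbx genes. Factors of neighbouring domains repress one another, and this sharpens the borders between them. FKBP8, the product of Fkbp8, belongs to the FK506-binding proteins and sits in the outer membrane of mitochondria, and mouse mutants are known for a ventralized posterior neural tube.

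Fkbp8 itself was not above background on any of the 3 mutant arrays and was at least 18.8-fold lower there (limma adjusted p = 1.18e-07). Between 20144 and 21612 gene probes per array were above background, with mutant c the lowest. All 3 mutant arrays and none of the wildtype arrays detected Uty, Ddx3y and Eif2s3y, which are Y-linked, and Xist showed the reverse. Kdm5d, also Y-linked, was detected on all 6 arrays and rose in mutants (log2 fold change 0.63, SE 0.08, limma adjusted p = 0.0403). Sex and genotype cannot be told apart for any gene below. Forebrain and eye genes should be missing from this tissue, and Otx2, Six6 and Vax1 were not above background on any array. Six3 and Rax, of the same list, were above background on all 6 arrays. Six3 averaged 11.03 ± 0.10 in mutants and 10.86 ± 0.17 in wildtypes (log2 intensity, SD, n = 3 each). Rax averaged 6.63 ± 0.12 in mutants and 6.73 ± 0.12 in wildtypes.

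Pax6, Irx3 and Prdm13 were called lower in the mutants in the main setting, and no tested member rose. Of these calls, only that of Pax6 held under every alternative way of processing. The tested members ran from a log2 fold change, mutant minus wildtype, of -1.26 for Dbx1 to -0.02 for Dbx2. Of the 9 members with a tested probe, 3 were called lower (limma, Benjamini-Hochberg adjusted p under 0.05 over all 21688 probes tested), where 0.0553% of all tested probes were called lower and 0.12% were called in either direction. A negative value was found for 9 of 9 tested members, against 47.6% of all tested probes, with a median of -0.38 over the tested members and 0.01 over all tested probes. In 6 of the 9 the mutant arrays all lay below the wildtype arrays, as they did for 8.56% of all tested probes, and the same 6 had a 95% interval below 0, with an unadjusted p under 0.05 and a lower value in 5.81% of all tested probes. Because the members were chosen with earlier results of these data known, these contrasts with all tested probes are descriptive and not independent support. A probe was tested if it was above background on at least 3 of 6 arrays. Prdm13 met this through its wildtype arrays, so its inclusion depended on the group where it was higher, and the other 8 were above background on all 6 arrays. In bulk tissue, fewer cells of a type and less RNA per cell cannot be told apart.

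**Figure D1:**
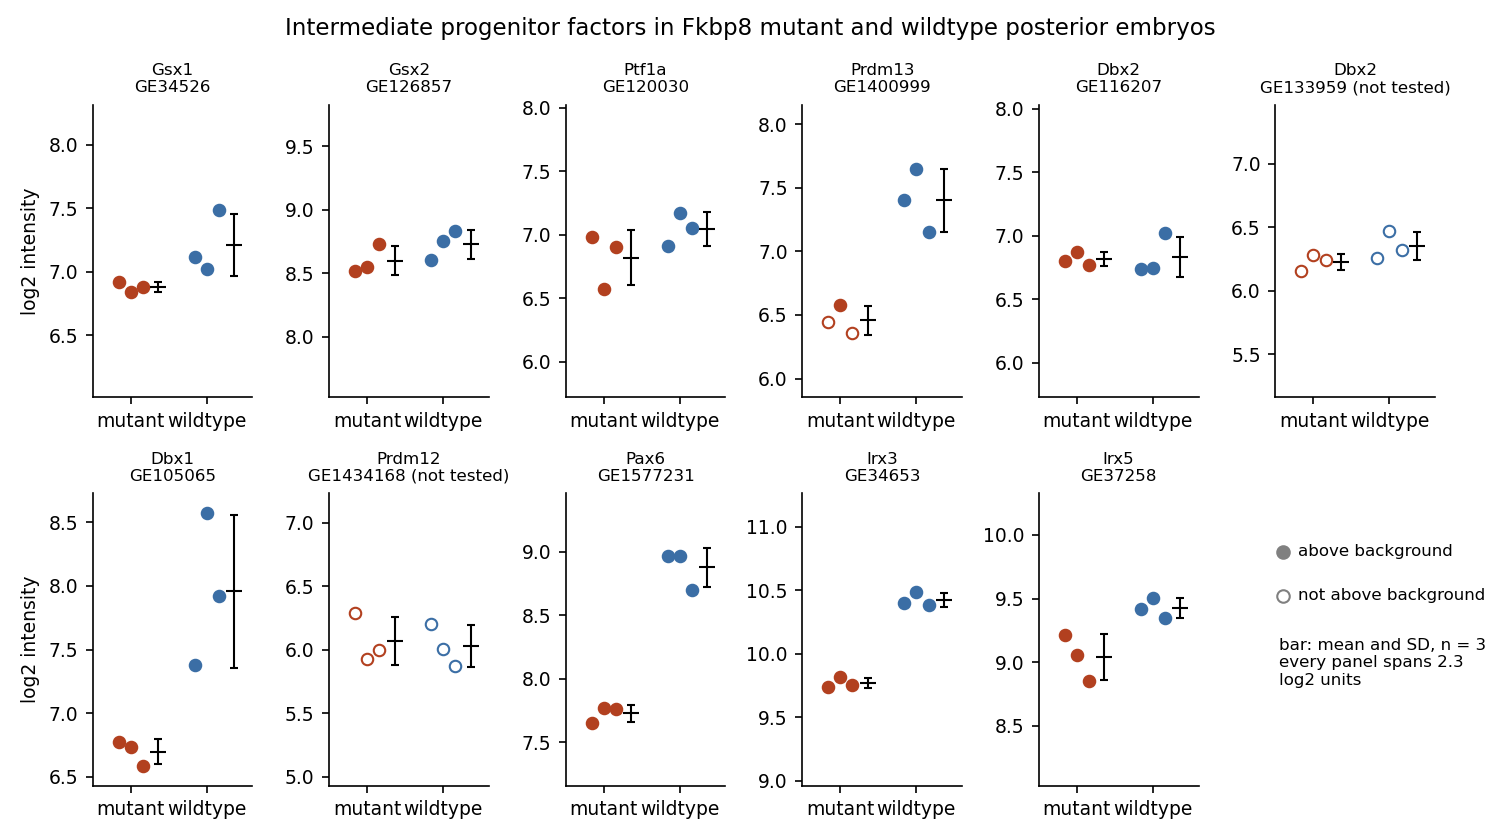
Log2 intensity (vertical axis) of each of the 11 probes on the 3 mutant arrays (left, a to c) and the 3 wildtype arrays (right, d to f), from the more dorsal to the broadly expressed factors. Filled points are above background, open points are not, and bars give the mean and SD (n = 3). For Prdm13, Dbx1, Pax6 and Irx3 the gap between the groups is wide next to the spread within the mutants, and in Dbx1 the wildtype points spread from 7.37 to 8.57.

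The start-site regions of the members were read from the RefSeq promoter table (build GRCm38.p6), which held 10 windows for 9 of the 10 genes and none for Irx5. The windows each had 250 bases before and 50 after a start site. They were searched on both strands for a Gli site (GACCACCCA), a nuclear receptor core motif (AGGTCA), Sox sites (ACAAAG or ACAATG) and a TATA box (TATAAA), and no matches overlapped. A Sox match was present in 5 of the 10 windows, against 28.6% of all 32851 windows in the table. A TATA match was present in 2 (Gsx2 and Dbx1), against 13.6%. All 10 member windows lacked the Gli letters, present in 0.253% of all windows, and the AGGTCA letters, present in 16.3%. The Dbx1 window held 4 Sox matches, which 0.137% of all windows reached or passed, starting 222, 208, 105 and 92 bases before the start site. Irx3 and the more upstream of the 2 Pax6 windows held none of the 4 motifs. The 250 bases before the start site are shown 5′ to 3′ along the gene for the members with the largest changes whose window held a match. Capitals mark the matches, which are Sox letters except for the TATAAA of Dbx1. A match is a run of letters and not a shown binding site.
Dbx1 (chr7:49636836-49637085, minus strand): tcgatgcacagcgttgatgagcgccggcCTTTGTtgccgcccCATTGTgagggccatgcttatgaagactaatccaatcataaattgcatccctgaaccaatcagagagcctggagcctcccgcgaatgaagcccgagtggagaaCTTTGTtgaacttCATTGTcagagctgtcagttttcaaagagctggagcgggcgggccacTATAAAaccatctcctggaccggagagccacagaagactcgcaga
Pax6 (chr2:105682213-105682462, plus strand): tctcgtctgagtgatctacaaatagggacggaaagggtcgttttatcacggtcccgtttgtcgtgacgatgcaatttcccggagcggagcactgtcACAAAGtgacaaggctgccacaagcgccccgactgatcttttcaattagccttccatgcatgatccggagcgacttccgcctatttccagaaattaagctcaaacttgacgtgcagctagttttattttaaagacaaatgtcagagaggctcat
Prdm13 (chr4:21685964-21686213, minus strand): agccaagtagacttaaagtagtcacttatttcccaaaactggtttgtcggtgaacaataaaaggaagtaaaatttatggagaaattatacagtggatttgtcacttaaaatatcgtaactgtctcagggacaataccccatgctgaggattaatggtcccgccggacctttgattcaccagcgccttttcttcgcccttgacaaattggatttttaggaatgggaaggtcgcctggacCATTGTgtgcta

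Pax6, a paired-domain and homeodomain factor made across the intermediate progenitors and weakly in more ventral ones, showed the strongest statistical evidence among the members. Its log2 intensity was 7.65, 7.77 and 7.76 in mutants a, b and c, against 8.96, 8.96 and 8.70 in wildtypes d, e and f. The mutant values spanned 0.12, and the highest of them lay 0.93 below the lowest wildtype value. The mean was 7.73 ± 0.07 in mutants and 8.88 ± 0.15 in wildtypes (SD, n = 3 each), a 2.22-fold fall (log2 fold change -1.15, SE 0.09, limma adjusted p = 0.00287). On the linear scale of the deposited normalized intensity, Pax6 averaged 2.49 ± 0.11 in mutants and 6.71 ± 0.82 in wildtypes, a ratio of 2.70. Only 6 of the 21688 tested probes had a smaller p. The call held under 19 of 19 alternatives, with log2 fold changes of -1.42 to -1.04. The nearest tested genes on either side of Pax6 in the RefSeq gene order, the antisense RNA gene Pax6os1 (-0.13, SE 0.11) and Elp4 (-0.21, SE 0.08), did not pass.

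Irx3, an Iroquois homeodomain factor that in chick keeps progenitors dorsal to the motor neuron domain from taking that fate, had little spread within either group. It stood at 9.74, 9.82 and 9.75 in mutants a, b and c, against 10.40, 10.48 and 10.38 in wildtypes d, e and f (log2 intensity). The groups were 0.56 apart at their closest, and the SD was 0.04 in mutants and 0.05 in wildtypes. Irx3 fell 1.57-fold (log2 fold change -0.65, SE 0.07, limma adjusted p = 0.0178). Its call was lost without mutant b (adjusted p = 0.0612), mutant c (0.0644), wildtype d (0.103), e (0.117) or f (0.0932), while the log2 fold change over these runs stayed between -0.68 and -0.62. With median centring of the arrays it was -0.52 (SE 0.14) and did not pass (adjusted p = 0.377).

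Irx5, which lies beside Irx3 in the same Iroquois cluster and is made in overlapping cells, did not pass the test. Its log2 intensity was 9.21, 9.06 and 8.85 in mutants a, b and c, against 9.42, 9.51 and 9.34 in wildtypes d, e and f. The groups were apart, with mutant a the closest to wildtype and mutant c the farthest. The log2 fold change was -0.38 (SE 0.10, 95% interval -0.62 to -0.15, limma adjusted p = 0.245), and its difference from that of Irx3 was not tested. The RNA gene Crnde, the nearest tested gene on one side of Irx5, had a log2 fold change of -0.58 (SE 0.13), and Irx6 on the other side had -0.16 (SE 0.09), and neither passed (adjusted p = 0.192 and 0.534). Fto, beside Irx3, had -0.13 (SE 0.07). Of the other Iroquois genes, which include Irx1, Irx2, Irx4 and Irx6, limma called 0 of 4, with 0 below 0.05 before adjustment, and the log2 fold changes were between -0.16 and 0.04.

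Irx3 and Irx5 are on chromosome 8, the chromosome of Fkbp8, and the other 8 members are on other chromosomes. In the gene order of GRCm38.p6, 156 tested genes other than members lie between Fkbp8 and Irx3. Their median log2 fold change was 0.01, and 2 of them, Ccdc124 and Bst2, were called (both lower). That is 1.28% of these genes, against 0.12% of all tested probes called in either direction. The first share counts genes and the second counts probes. Where Ccdc124 and Bst2 lie within the stretch is not given here, so the share does not describe the part nearest Irx3.

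Dbx1, the homeodomain factor of the narrow progenitor domain that gives rise to V0 interneurons, had the most negative log2 fold change of the members, and it did not pass. Its log2 intensity was 6.77, 6.73 and 6.58 in mutants a, b and c, against 7.37, 8.57 and 7.92 in wildtypes d, e and f. The mutants were close together and just above background, and the wildtypes differed among themselves by more than wildtype d differed from the mutants. The mean was 6.70 ± 0.10 in mutants and 7.96 ± 0.60 in wildtypes (SD, n = 3 each), where the median SD of a tested probe was 0.11 in mutants and 0.09 in wildtypes. The log2 fold change was -1.26 (SE 0.25, 95% interval -1.83 to -0.69, limma adjusted p = 0.163). Only 22 of the 21688 tested probes had a change as negative, Dbx1 included. On the deposited linear scale the wildtype arrays stood at 1.77, 5.27 and 3.02, and the mean was 0.743 ± 0.120 in mutants and 3.35 ± 1.77 in wildtypes, a ratio of 4.51. The offset of 50 added before taking log2 shrinks the changes of dim probes, and with an offset of 16 the log2 fold change of Dbx1 was -1.61. Without wildtype e the log2 fold change was -0.95 and without wildtype d it was -1.55.

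Dbx2, made in a wider zone that flanks and includes the Dbx1 domain, showed no change that this design could resolve. Its brighter probe stood at 6.80, 6.87 and 6.77 in mutants a, b and c, against 6.74, 6.75 and 7.02 in wildtypes d, e and f. The groups overlapped, and the log2 fold change was -0.02 (SE 0.09, 95% interval -0.24 to 0.19, limma adjusted p = 0.948). The sign turned without wildtype f, without mutant c and when the arrays were scaled to pan-neural genes. Its other probe, at 6.15 to 6.28 in mutants and 6.25 to 6.47 in wildtypes, was undetected throughout and was not tested.

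Prdm13, a PR-domain zinc finger factor that acts with and downstream of Ptf1a in the dorsal part of the intermediate zone, was near the detection limit in mutants. Its log2 intensity was 6.44, 6.58 and 6.35 in mutants a, b and c, of which mutant b was above background, against 7.40, 7.65 and 7.15 in wildtypes d, e and f, all above background. The groups were 0.57 apart at their closest. Prdm13 fell (log2 fold change -0.94, SE 0.13, limma adjusted p = 0.0468). On the deposited linear scale it averaged 0.492 ± 0.111 in mutants and 1.84 ± 0.48 in wildtypes (SD, n = 3 each), and no ratio is given because 2 of the mutant values were not above background. Its adjusted p stood next to the threshold, and it was 0.0905 without mutant a, 0.11 without b, 0.125 without c, 0.251 without wildtype d, 0.118 without e and 0.0444 without f, with log2 fold changes between -1.07 and -0.82. Its nearest tested neighbours, Ggh (0.06, SE 0.11) and Ccnc (0.32, SE 0.08), did not pass.

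Ptf1a, a basic helix-loop-helix factor that directs progenitors to inhibitory neurons in the dorsal cord, stood at 6.98, 6.57 and 6.91 in mutants a, b and c, against 6.91, 7.17 and 7.05 in wildtypes d, e and f (log2 intensity). The groups overlapped through wildtype d, with mutant b the lowest. The log2 fold change was -0.23 (SE 0.12, 95% interval -0.50 to 0.05, limma adjusted p = 0.485), or -0.10 without mutant b. Ptf1a and Pax6 are also made in the pancreatic bud. Of the 6 genes listed for the pancreatic bud and gut endoderm, 3 were tested and limma called 0 (also 0 by p without adjustment, under 0.05), Gcg and Onecut1 were not above background on any array, and the array means of the 3 were 6.81 to 6.92 in mutants and 6.68 to 6.78 in wildtypes. Pdx1, the defining gene of that bud, was detected on 1 mutant array and 2 wildtype arrays.

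The paralogues Gsx1 and Gsx2, homeodomain factors of dorsal interneuron progenitors, had intervals that differed in whether they took in 0. Gsx1 stood at 6.92, 6.84 and 6.88 in mutants a, b and c, against 7.12, 7.03 and 7.48 in wildtypes d, e and f. Its groups were 0.11 apart, with wildtype f well above the others, and the log2 fold change was -0.33 (SE 0.12, 95% interval -0.60 to -0.06, limma adjusted p = 0.334), or -0.19 without wildtype f. Gsx2 stood at 8.52, 8.55 and 8.73 in mutants a, b and c, against 8.61, 8.75 and 8.83 in wildtypes d, e and f. Its groups overlapped, and the log2 fold change was -0.13 (SE 0.09, 95% interval -0.34 to 0.08, limma adjusted p = 0.594), or -0.079 without wildtype f. The difference between the paralogues was not tested.

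Prdm12, a PR-domain factor of the progenitors of V1 interneurons, was not above background on any of the 6 arrays and was not tested. Its log2 intensity was between 5.93 and 6.29 in mutants and between 5.87 and 6.20 in wildtypes, so no level or change can be given. For the 6 members whose groups did not overlap, exact permutation of the 6 arrays (two-sided) gave p = 0.1, the smallest that 3 against 3 allows, so the calls above rest on limma's variance shared across probes.

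**Figure D2:**
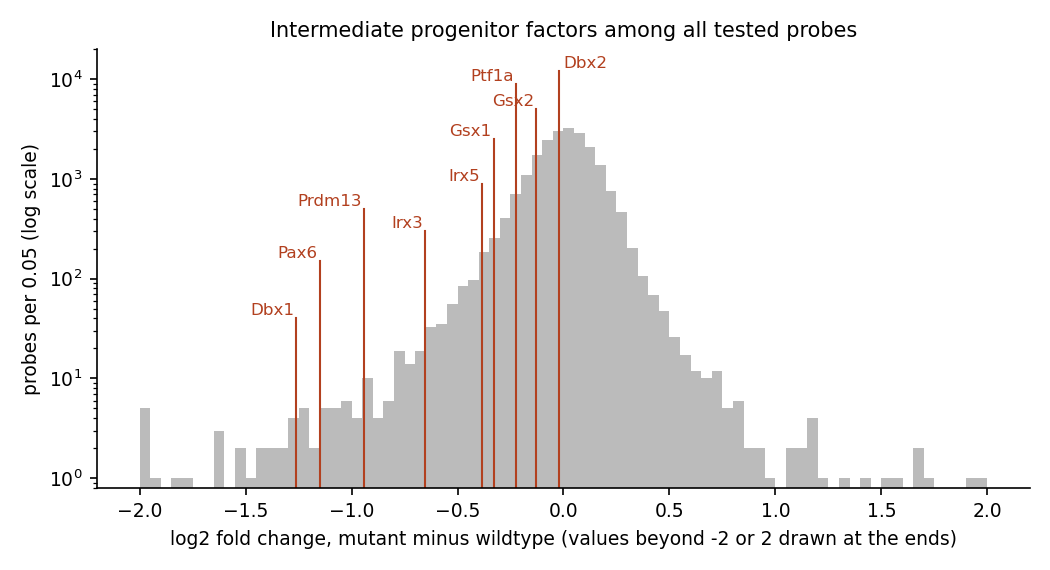
Histogram of the log2 fold change, mutant minus wildtype, of all 21688 tested probes in bins of 0.05 (the count axis is logarithmic, and values beyond 2 in either direction are counted in the end bins), with the 9 tested members as red lines of arbitrary height. All the red lines lie on the negative side, from Dbx1 at -1.26 to Dbx2 at -0.02, and 4 of them lie below -0.6 in the sparse lower tail.

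Genes of the neighbouring domains framed these values. Of the 8 listed ventral progenitor and floor plate genes 5 were tested, and 2 rose in limma, the homeodomain factor Nkx6-1 (log2 fold change 1.14, SE 0.11) and the floor plate factor Foxa2 (1.08, SE 0.14), with 0 called lower and a median of 1.08. Nkx2-9, a ventral homeodomain factor, had 1.44 (SE 0.29) and did not pass. Olig2 had -0.16 (SE 0.13), and Shh had 0.21 (SE 0.12) at its brighter probe and -0.30 (SE 0.18) at its dimmer probe. Neither gene passed, and the groups overlapped at each of these probes. Of the 14 listed roof plate and dorsal genes 10 were tested and limma called 0 (5 lower and 1 higher had p under 0.05 before adjustment), and the median was -0.17. Zic1, a zinc finger factor of dorsal neural tube and somites, averaged 7.93 ± 0.14 in mutants and 8.93 ± 0.27 in wildtypes (SD, n = 3 each, limma adjusted p = 0.0505). The secreted signal Wnt3a had a log2 fold change of -0.47 (SE 0.08) and Olig3, a factor of the dorsal progenitors, -0.40 (SE 0.09). The median of the intermediate members, -0.38, thus lay below those of both neighbouring lists. No test of that order was made, and the members and lists were chosen with earlier results of these data known.

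**Figure D3:**
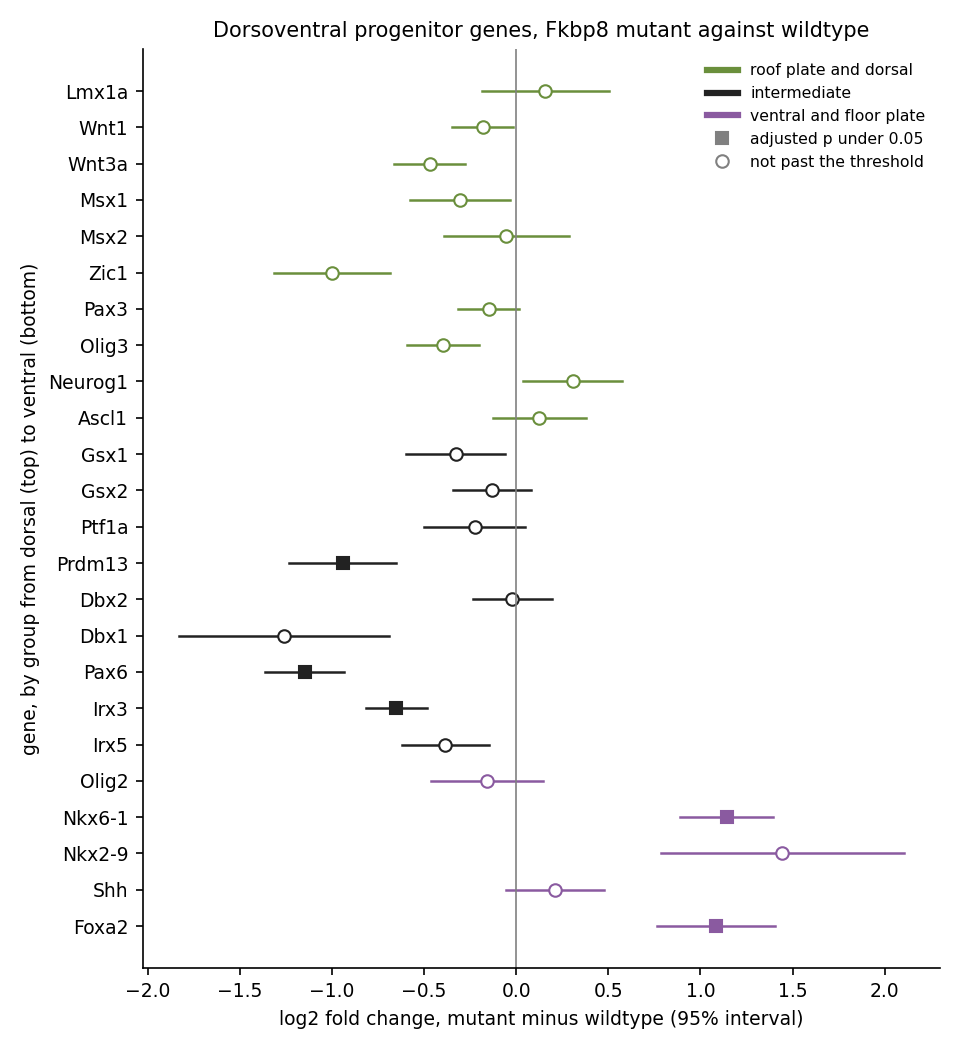
Log2 fold change, mutant minus wildtype (horizontal axis), with its 95% interval from limma, for tested genes grouped from dorsal (top) to ventral (bottom), 1 probe for each gene. Filled squares have an adjusted p under 0.05 and open circles do not. Pax6, Irx3 and Prdm13 are filled on the negative side, Nkx6-1 and Foxa2 on the positive side, and no dorsal gene is filled.

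Pan-neural progenitor genes, listed for the neural progenitor tissue that each array held, included none that passed. Of the 8 listed genes, 8 were tested, with 0 called by limma (1 lower and 1 higher had p under 0.05 before adjustment), and the median was -0.13. Sox2, a factor of all neural progenitors, was at -0.50 (SE 0.19) in log2 fold change, while Fabp7 had 0.21 (SE 0.09) and Nes 0.16 (SE 0.07). The mean over the list was 8.35 to 8.52 in mutants and 8.50 to 8.56 in wildtypes, so mutants b and c lay below the wildtypes and mutant a among them. When each array was shifted to an equal mean of this list, the median change of all probes moved to 0.12, Pax6 still fell (log2 fold change -1.04, SE 0.12, limma adjusted p = 0.00716), Irx3 had -0.54 (adjusted p = 0.0995), Prdm13 -0.83 (0.0721) and Dbx1 -1.15 (0.139).

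The tested genes listed for neurons born from the intermediate domains showed no detectable change in this bulk tissue. Of 11 listed genes 6 were tested and limma called 0, with 0 below 0.05 before adjustment, and the median was -0.03. Evx2 and Tlx3, of the same list, were not above background on any array. Evx1, a marker of V0 neurons, was at 0.01 (SE 0.09, 95% interval -0.19 to 0.21) in log2 fold change. En1 of V1 neurons had 0.13 (SE 0.10) and Foxd3, made in V1 neurons and neural crest, -0.16 (SE 0.08). Whether other tissues in these samples added to the signals of this list was not tested, so the values do not show whether the neurons themselves changed. Among 12 general genes of young neurons 11 were tested and Nhlh2 rose in limma (at least 1.52-fold higher, adjusted p = 0.0456). Nhlh2 was detected in all 3 mutants and in none of the wildtypes, so it was tested only through the group where it was higher. Neurod4 (log2 fold change 0.80, SE 0.12) and Elavl3 (0.24, SE 0.09) did not pass. The median over the 11 tested genes was 0.06, with 8 positive and 3 negative values. The mean over the tested genes of this list, Nhlh2 included, was 7.10 to 7.23 in mutants and 6.92 to 7.08 in wildtypes. No mean was taken without Nhlh2, so the distance between the groups depends in part on the filter. The part of young neurons in the fall of the progenitor factors was not tested.

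Signals that set the members' domains were examined from lists of their genes. Of 6 hedgehog response genes 6 were tested and limma called 0, with 4 higher at p under 0.05 before adjustment. The receptor and target Ptch1 was at 0.48 (SE 0.08, limma adjusted p = 0.136) in log2 fold change at its brighter probe and 0.10 (SE 0.11) at its dimmer probe, and the target factor Gli1 had 0.23 (SE 0.07). Of 12 retinoic acid genes 10 were tested and limma called 0, with 2 lower at p under 0.05 before adjustment. These were the retinoic acid receptor and target Rarb (-0.29, SE 0.11) and the synthesis enzyme Aldh1a2 (-0.34, SE 0.15). Of the other Pax genes 0 of 7 tested passed, with Pax3 at -0.15 (SE 0.07) and Pax1, made in sclerotome, at 0.37 (SE 0.08). Erythroid genes were listed for the blood that a dissection can hold, and limma called 0 of 8. All 8 log2 fold changes were positive, from 7.4e-05 to 0.47 with a median of 0.26, and 2 had p under 0.05 before adjustment. The list means were 11.49 to 11.82 in mutants and 11.27 to 11.72 in wildtypes, and the part of these genes in the results was not tested.

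The probes most like Pax6, Dbx1 and Irx3 over the 6 arrays were found by the root mean square difference between mean-centred log2 profiles, among tested probes of 1 gene symbol. Nearest to Pax6 were Ccdc124 (0.122), Scube2 (0.155), a secreted protein that helps to release hedgehog ligands, and Zic1 (0.231). Nearest to Dbx1, with its spread among wildtypes, were Pcnx2 (0.228), Asgr1 (0.245) and Zic1 (0.263). Nearest to Irx3 were Bst2 (0.0731), Csnk2a1 (0.0738) and Hccs (0.093). These genes were chosen for profiles like those of members that were lower in mutants, so their direction follows from the choice.

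**Figure D4:**
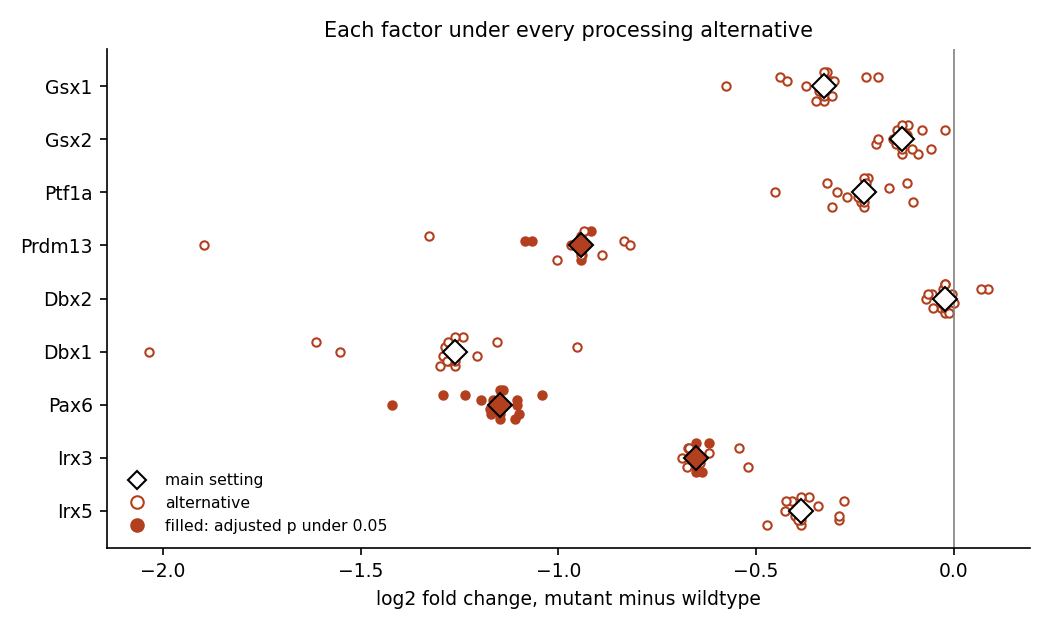
Log2 fold change, mutant minus wildtype, of each tested member in the main setting (diamond) and under each processing alternative (circles, filled where the adjusted p is under 0.05, jittered vertically). Pax6 is filled throughout, Irx3 in 11 of 19 and Prdm13 in 6 of 18 alternatives, and the values of Dbx2 fall on both sides of 0.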

How the data were processed

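Total RNA of 6 posterior embryo samples was hybridized to 1-colour CodeLink arrays. Per the file headers, spots were quantified with CodeLink Expression Analysis, and the deposited intensity columns used here are the spot mean and the median of its local background. The deposited normalized intensity was the background-subtracted intensity divided by 1 factor per array, and the series table held the same values on a linear scale. Groups were taken from the sample titles. In the sample names recorded with the arrays, mutant a and wildtype d share a leading number whose meaning is not stated. The fit used no pairing.

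Background was corrected with normexp (offset 50, limma 3.58.1 in R 4.3.3). Control spots and the 339 to 508 spots per array that carried another mark than good, low or saturated were left out, and log2 values were quantile-normalized. "Above background" means that the quantification software gave the spot the mark good or saturated. Probes that 3 or more of 6 arrays detected above background, and usable on 2 or more arrays of each group, were fitted with limma (lmFit, eBayes), two-sided, and p-values were adjusted over all 21688 probes. For a probe that a whole group failed to detect, a bound is given for the fold, against, per array, the higher of its own value and the lowest value above background. The fit was tested on data simulated with independent normal noise for each probe. That simulation held no array or sex effects, so it does not bear on them. Probes were named through the platform annotation, RefSeq accessions and array descriptions, which gave 1 symbol to 22279 of 34967 probes. RefSeq GRCm38.p6 served for names, gene order and promoter sequences, and the sources used here give no build for the arrays. For gene lists, the brightest tested probe stands for a gene. The genes named are the members, Fkbp8, the nearest tested neighbours of called members, the 3 nearest profiles of Pax6, Dbx1 and Irx3, and from each list up to 3 genes with the smallest p and those that passed. Evx1, Olig2, Shh, Crnde and the genes named as undetected lie outside that rule and were chosen after their values were seen. The members and lists were chosen with earlier results of these data known. Alternatives changed the background correction, normalization, filter, variance model, scaling and threshold, or left out 1 array. Some items are not reported here.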

Additional observations from a re-analysis of the deposited data

How the results depend on the processing

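The number of members called lower, 3 in the main setting, was 1 with median centring, with background-subtracted values floored at 1 and with scaling to the pan-neural genes, and 1 to 2 with 1 array left out. The corresponding count over all probes, 26, was 12, 13 and 26 under the first 3 of these (the last split into 19 higher and 7 lower, against 14 and 12 in the main setting). It was 16 with the filter on all 6 arrays, which does not test Prdm13, and 11 to 37 with 1 array left out. In a run without X- and Y-linked genes, chosen after seeing the data, it was 14, with 2 members. Prdm13 was the member not called in that run (limma adjusted p = 0.0607). Members without a call in the main setting had none under any alternative at an adjusted p under 0.05. Dbx2 reversed to 0.087 with the pan-neural scaling and lay between -0.069 and 0.070 with 1 array left out. The cause of these shifts was not tested. No other tested member changed sign. The scale of the deposited series table is linear, and with it 3 members were called. The number of arrays and the closeness of Prdm13, Ptf1a, Dbx2 and the mutant Dbx1 and Gsx1 signals to background limit these values.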

Other observations

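Prdm8, a PR-domain factor from outside the chosen members, had the smallest p among the 9 tested of the 12 other Prdm genes. Its log2 intensity averaged 6.86 ± 0.09 in mutants and 7.39 ± 0.19 in wildtypes (SD, n = 3 each), with a log2 fold change of -0.53 (SE 0.11) that did not pass (limma adjusted p = 0.168). The groups did not overlap. The other Prdm genes included Prdm11 (0.22, SE 0.08) and Prdm4 (0.13, SE 0.08), 0 of 9 passed in limma, and 1 was lower and 1 higher at an unadjusted p under 0.05.

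Limb and lateral mesoderm genes, which share the dissected tissue and where Iroquois genes are also made, had a median log2 fold change of 0.01 over the 7 tested of 8 listed genes. In limma 0 passed and 0 had an unadjusted p under 0.05. Prrx1 had -0.16 (SE 0.09), Tbx5 0.13 (SE 0.10) and Hand1 0.06 (SE 0.10), and the array means were 8.25 to 8.45 in mutants and 8.33 to 8.40 in wildtypes.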
